A study of Mus musculus with 4 samples.

Results

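The genes described here encode the subunits of the 3 nuclear RNA polymerases, called Pol I, Pol II and Pol III. They were chosen by name from the 26561 genes of the count table. Protein-coding genes whose symbols begin with Polr1, Polr2 or Polr3 and a letter were taken, together with the subunit genes Cd3eap, Znrd1, Twistnb and Crcp, which gives 32 genes. The rule uses names alone, but the members were chosen with earlier results of these data known. Messenger RNA was sequenced from MC38, a mouse colon carcinoma line that the labels give as wild type and epithelial, in 2 unirradiated libraries and in 2 libraries of cells taken 60 h after a single X-ray dose of 30 Gy. The time at which the unirradiated cells were harvested is not stated in the labels, so time in culture and cell density cannot be told apart from irradiation.

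Pol I transcribes the precursor of the large ribosomal RNAs, Pol II the messenger RNAs, and Pol III the transfer RNAs and other short RNAs. The enzymes share a common plan: a large and a second subunit that form the active site, a pair of alpha-like subunits on which the core is assembled, a stalk, and a small zinc ribbon subunit related to the elongation factor TFIIS. Pol I and Pol III also carry built-in pairs that resemble the Pol II initiation factor TFIIF, and Pol III a further trio that resembles TFIIE. Some subunits are common property: Polr2e, Polr2f, Polr2h, Polr2k and Polr2l serve all enzymes, and the alpha-like pair Polr1c and Polr1d serves Pol I and Pol III. Making ribosomes and transfer RNA is a large part of the cost of growth, and Pol I and Pol III are known to be held back when growth stops.

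The upstream sequences of 5 subunit genes are shown because they belong to contrasts described below. Polr1b and Polr3e had the lowest fold changes among Pol I-only and Pol III-only subunits. The paralogues Polr3g and Polr3gl moved in opposite directions, and Polr2a rose by a small amount. The sequences come from RefSeq (GRCm38.p6), run 5′ to 3′ on the gene's strand, and stop before the first base that GENCODE annotates for the gene. Capitals mark matches, on either strand, to CACGTG (the E-box letters that MYC proteins bind), GGGCGG (the GC box), CCGGAAG (an ETS-type site) or the B box, the element inside transfer RNA genes that the Pol III factor TFIIIC binds.
Polr1b, chr2:129100746-129100994, plus strand: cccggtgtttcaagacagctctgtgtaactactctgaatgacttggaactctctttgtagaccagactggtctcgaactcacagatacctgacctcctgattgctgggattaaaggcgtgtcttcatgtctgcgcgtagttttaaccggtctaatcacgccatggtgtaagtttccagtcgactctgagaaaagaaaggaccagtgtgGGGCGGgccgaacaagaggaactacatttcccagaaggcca
Polr3e, chr7:120917528-120917743, plus strand: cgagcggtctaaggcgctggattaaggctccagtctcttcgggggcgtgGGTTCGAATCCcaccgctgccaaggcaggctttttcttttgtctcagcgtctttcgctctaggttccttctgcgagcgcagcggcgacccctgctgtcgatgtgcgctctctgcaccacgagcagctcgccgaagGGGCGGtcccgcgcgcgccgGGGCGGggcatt
Polr3g, chr13:81711014-81711263, minus strand: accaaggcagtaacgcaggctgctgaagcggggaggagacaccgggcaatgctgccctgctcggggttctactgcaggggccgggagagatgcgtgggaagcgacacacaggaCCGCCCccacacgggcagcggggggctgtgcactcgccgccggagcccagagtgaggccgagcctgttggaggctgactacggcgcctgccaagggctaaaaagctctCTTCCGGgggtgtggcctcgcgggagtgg
Polr3gl, chr3:96594182-96594431, minus strand: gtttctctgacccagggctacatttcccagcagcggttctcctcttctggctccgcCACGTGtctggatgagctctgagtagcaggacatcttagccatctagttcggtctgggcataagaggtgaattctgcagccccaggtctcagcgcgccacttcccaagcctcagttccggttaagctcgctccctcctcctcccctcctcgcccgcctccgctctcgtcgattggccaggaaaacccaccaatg
Polr2a, chr11:69758638-69758883, minus strand: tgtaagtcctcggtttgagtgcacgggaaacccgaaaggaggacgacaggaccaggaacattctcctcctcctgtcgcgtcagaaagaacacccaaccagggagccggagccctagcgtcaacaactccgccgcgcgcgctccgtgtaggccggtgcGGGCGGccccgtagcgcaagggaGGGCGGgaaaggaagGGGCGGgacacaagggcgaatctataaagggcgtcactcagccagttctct

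In the 250 bases before RefSeq starts, 28 windows were found for 25 of the 32 genes. GGGCGG was in 15 of them (53.6%), against 55.9% of the 13506 windows of tested genes and 32.7% of all 32851 windows. CACGTG was in 3 (10.7%), against 7.98% and 6.02%. These belong to Cd3eap, Polr3c and Polr3gl, which respectively did not pass the test, fell and rose. CCGGAAG was in 6 (21.4%), against 13.1% and 6.91%. AAGATGGC, the letters of a YY1 site, was in 0, against 2.01% and 1.56%. Upstream of Polr3e, 201 to 191 bases before the start, stands the B box match GGTTCGAATCC. A B box match was in 1 of the 28 subunit windows and in 18 of those of tested genes (0.133%), and it was searched for after the sequence had been read. No match overlapped another in these windows. A match describes letters and not a bound site.

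Levels are given as CPM, counts scaled to a common library size of 1e+06. Changes are log2 fold changes of irradiated over unirradiated cells with standard errors (SE), tested across the whole table by edgeR's quasi-likelihood test. A gene is said to have risen or fallen where the Benjamini-Hochberg adjusted p was under 0.05. Library totals ran from 26059171 to 29881492 counts, a subunit held between 175 and 14310 counts in a library, and all 32 passed the filter on low counts. The labels do not say whether replicate libraries are separate cultures, so the p-values measure only the spread between these libraries. For 31 of the 32 genes that spread was taken wholly from the trend over all genes. The defining epithelial markers were mostly absent: Epcam had 0, 0, 0 and 1 counts and Krt18 0, 0, 2 and 3, whereas Cdh1 stood at 34.6 to 36.3 CPM in unirradiated and 67.7 to 72.997 CPM in irradiated libraries. The 6 epithelial markers summed to 36.5 to 38.4 CPM before and 69.8 to 75.9 CPM after irradiation. The 6 fibroblast markers summed to 452 to 456 and 873 to 874 CPM. Most of that was Col3a1 (348 to 352 and 671 to 675 CPM), and Lum had 0 to 6 counts. The 5 macrophage markers in the table summed to 4.11 to 5.02 and 33.2 to 39.2 CPM, mostly Cd68, with Adgre1 and Csf1r at 0 to 2 counts. Endothelial markers summed to 1.92 to 2.58 and 6.21 to 6.55 CPM, and those of T and NK cells to at most 0.571 CPM. The part of these shifts in the results below was not tested.

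Transcripts of the polymerase subunits were mostly lower in irradiated cells. Of the 32 genes, 21 fell, 2 rose (Polr2a and Polr3gl) and 9 did not pass the test. Of all 15298 genes tested, 60.7% passed, 30.3% falling and 30.4% rising. Among the 9542 genes whose mean CPM lay within the range of the subunits, 42.3% fell and 29.3% rose. The median log2 fold change of the subunits was -0.29, or 0.817-fold, against 0.01 for all genes tested and -0.08 for genes in the same CPM range. Both irradiated libraries lay below both unirradiated ones for 27 subunits (38.7% of all genes tested) and above them for 2 (39.7%). Among the 9542 genes in the CPM range of the subunits they lay below for 4722 and above for 3342. Only Polr2h, Polr3e and Polr1b changed more than 2-fold among the 32. In bulk samples fewer cells with a transcript and less of it per cell cannot be told apart. Exons of 11 subunit genes overlap another gene on the opposite strand, 7 of them a gene with over 10% as many counts, and reads there cannot be told apart.

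**Figure D1:**
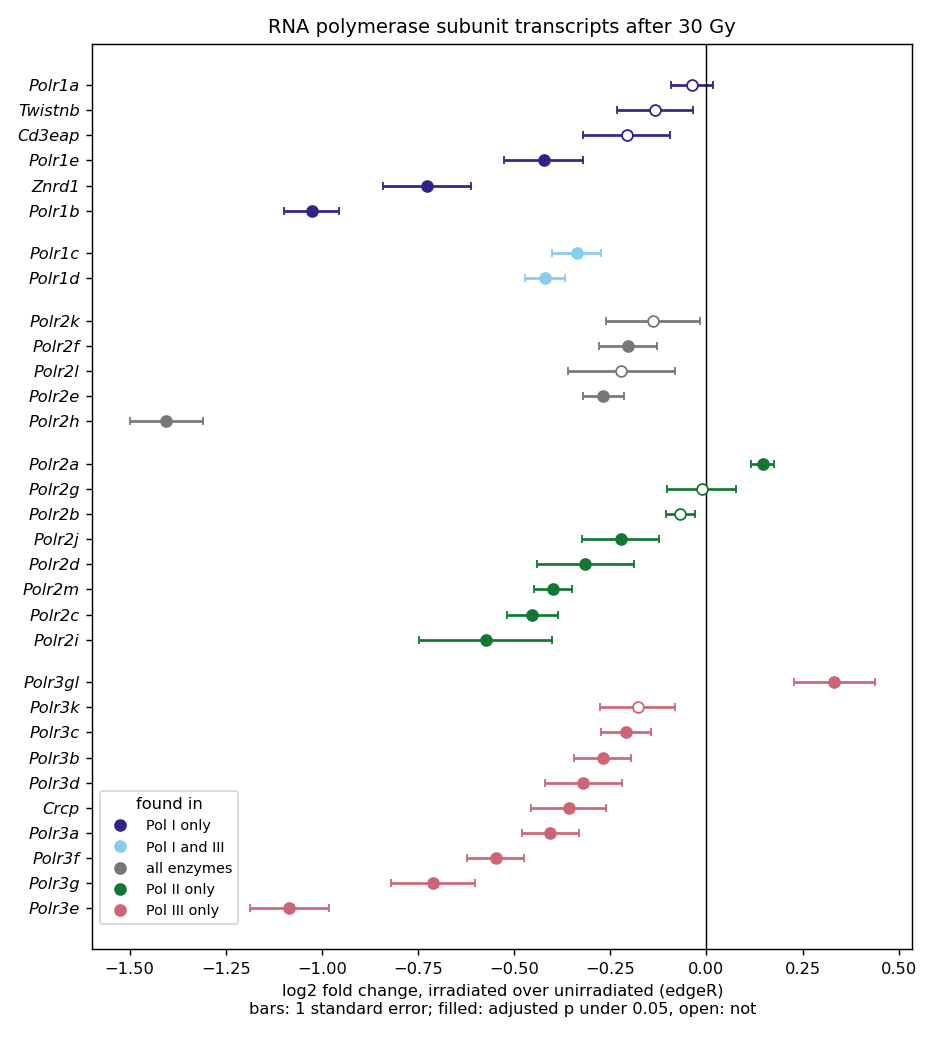
Log2 fold change of the subunit transcripts reported here, irradiated over unirradiated cells (x axis, log2 units), with bars of 1 SE from edgeR, grouped by the enzymes that contain the subunit. Filled points passed at an adjusted p under 0.05, and of those Polr2a and Polr3gl lie to the right of 0.

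The enzymes were then set side by side. Of the subunits found only in Pol I, 3 of 6 fell and none rose (median log2 fold change -0.32). Of those found only in Pol II, 5 of 8 fell and 1 rose (median -0.27). Of those found only in Pol III, 8 of 11 fell and 1 rose (median -0.32). Both subunits shared by Pol I and Pol III fell (median -0.38), as did 3 of 5 subunits common to all enzymes (median -0.22). In that order the shares that fell were 50%, 62.5%, 72.7%, 100% and 60%. Of all genes tested 30.3% fell, and of those in the CPM range of the subunits 42.3%. The share of the Pol I-only subunits was near the latter, and the classes are small. With 2 libraries against 2 an exact two-sided permutation test cannot go below p = 0.333, so differences between the enzymes are given as values without a test.

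Levels can be compared between genes only per length, here as CPM per kilobase of annotated exon. Summed in that way, the Pol I-only subunits stood at 63.4 and 65.6 in unirradiated and at 44.5 and 45.04 in irradiated libraries. The Pol II-only subunits stood at 239 and 240.4 before and 218 and 222 after. The Pol III-only subunits stood at 105 and 105 before and 86.995 and 87.4 after. These are changes of -30.6%, -8.18% and -16.9%, and the groups did not overlap in any of these sums. Such separation is common here: both irradiated libraries were lower for 38.7% of all genes tested. The sums weight abundant subunits most, and Polr2a alone gave 62.8 of the unirradiated Pol II sum. In the Pol I sum the largest drops were those of Znrd1 (mean 27.8 to 16.8) and Polr1b (10.5 to 5.17). Polr1a, Cd3eap and Twistnb of that class did not pass the test. With geometric means, which weight the members of a class equally, the changes were -25.6%, -15.1% and -21.7%. The log2 ratio of Pol I to Pol II moved by -0.40 with sums and by -0.19 with geometric means, and that of Pol I to Pol III by -0.26 and -0.07. The lower share of Pol I transcripts thus depends in size on how the class is summarised and on its most changed members. By median log2 fold change the Pol I-only and Pol III-only subunits were alike (-0.32 and -0.32).

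**Figure D2:**
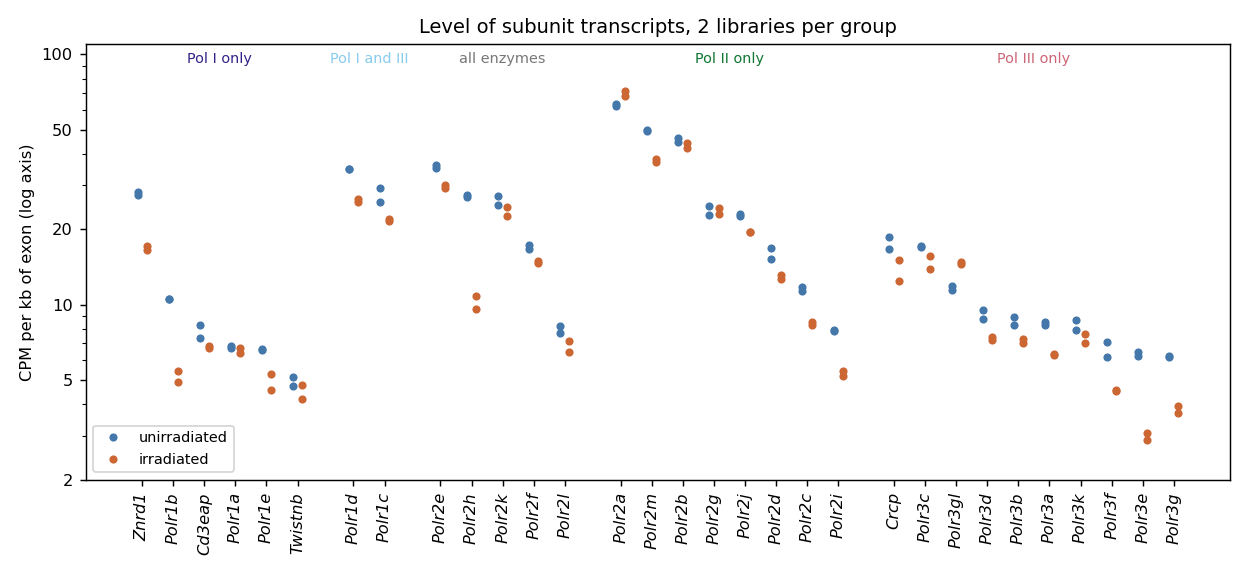
Level of the subunit transcripts reported here in CPM per kilobase of exon (log axis) in the 2 unirradiated and 2 irradiated libraries, 1 point per library, grouped by the enzymes that contain the subunit. Polr2a is highest, at 62.8 before and 69.6 after irradiation, and Polr3e is lowest after irradiation at 2.98.

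Per length, the most abundant subunit transcripts were those of Pol II. Polr2a, Polr2m and Polr2b stood at 62.8, 49.6 and 45.3 CPM per kilobase in unirradiated cells. Within the Pol I-only subunits the unirradiated range was 4.93 (Twistnb) to 27.8 (Znrd1), and the highest of the Pol III-only subunits was Crcp at 17.6. Exon lengths include all annotated variants. Between the groups Polr2h moved from rank 8 to rank 16 of the 32 and Polr1b from rank 18 to rank 26.

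The largest subunits of the enzymes did not move alike. Polr2a (ENSMUSG00000005198, chromosome 11, 69733997 to 69758637, minus strand, GRCm38) encodes the Pol II subunit whose tail is phosphorylated during the transcription cycle. It stood at 448 and 439.9 CPM in unirradiated and at 481 and 502 CPM in irradiated libraries. Both irradiated libraries were higher, by 10.7% in the fit (log2 fold change 0.15, SE 0.03, edgeR adjusted p = 2.85e-06). Polr1a (ENSMUSG00000049553, chromosome 6, 71909053 to 71984935, plus strand), the catalytic subunit of Pol I, stood at 79.3 and 80.9 CPM before and 76.4 and 79.9 CPM after. Those libraries overlapped, and the log2 fold change of -0.04 (SE 0.05) did not pass, with adjusted p = 0.5796. Polr3a (ENSMUSG00000025280, chromosome 14, 24448696 to 24487058, minus strand), the catalytic subunit of Pol III, stood at 49.7 and 48.2 CPM before and at 36.8 and 36.99 CPM after. It fell by 0.41 on the log2 scale (SE 0.07, adjusted p = 1.26e-07).

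The second subunits, which close the active site from the other side, gave another order. Polr1b (ENSMUSG00000027395, chromosome 2, 129100995 to 129126594, plus strand) stood at 61.2 and 61.2 CPM in the unirradiated libraries and at 31.6 and 28.4 CPM in the irradiated ones. It fell 2.04-fold (log2 fold change -1.03, SE 0.07, edgeR adjusted p = 3.12e-44), and 3.92% of all genes tested had a lower log2 fold change. Polr3b (chromosome 10, 84622292 to 84727178, plus strand) stood at 43.7 and 46.8 CPM before and at 38.3 and 36.8 CPM after, and fell by 0.27 on the log2 scale (SE 0.08, adjusted p = 7.40e-04). Polr2b (chromosome 5, 77310147 to 77349324, plus strand) stood at 208 and 215 CPM before and at 198 and 206 CPM after, and its log2 fold change of -0.07 did not pass (adjusted p = 0.112). Without unirradiated replicate 1 Polr2b passed as lower (adjusted p = 0.0357). Its exons share 85 bases with Igfbp7, which rose (log2 fold change 1.29).

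Ratios within the catalytic pairs differed between the enzymes. In counts per kilobase, the ratio of Polr1b to Polr1a was 1.58 and 1.55 in unirradiated and 0.847 and 0.726 in irradiated libraries. For Polr2b to Polr2a it was 0.701 and 0.741 before and 0.623 and 0.6204 after. For Polr3b to Polr3a it was 0.975 and 1.08 before and 1.151 and 1.103 after. These pairs were picked after the values had been seen, and the difference between enzymes was not tested.

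**Figure D3:**
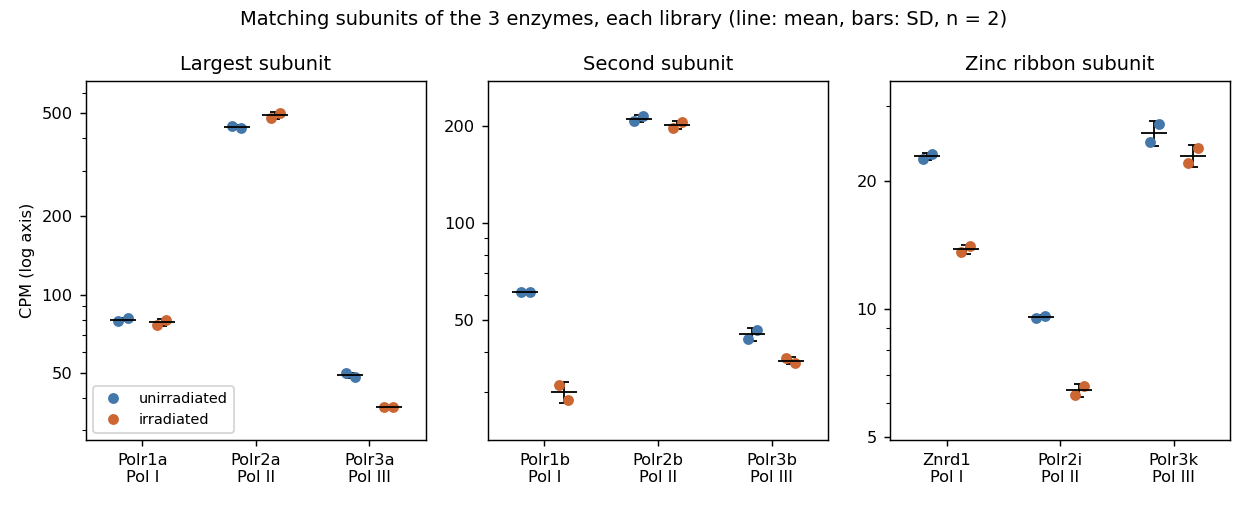
CPM (log axis) of the largest, the second and the zinc ribbon subunit of Pol I, Pol II and Pol III in each library, with the mean and SD of 2 libraries per group. The mean of Polr1b is 61.2 CPM before and 30.005 CPM after irradiation, and that of Polr1a 80.1 and 78.1 CPM.

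The zinc ribbon subunits help the enzymes cut back a stalled transcript. Znrd1, the Pol I form (ENSMUSG00000036315, chromosome 17, 36954356 to 36958559, minus strand), stood at 22.5 and 23.1 CPM before and at 13.6 and 14.01 CPM after, a 1.65-fold decrease (log2 fold change -0.73, SE 0.11, edgeR adjusted p = 7.51e-10). Polr2i, the Pol II form (chromosome 7, 30231948 to 30233390, plus strand), stood at 9.53 and 9.63 CPM before and at 6.28 and 6.59 CPM after, a 1.49-fold decrease (adjusted p = 1.94e-03). Of its exon bases, 26.8% overlap Tbcb, which holds 306% as many counts and fell as well (log2 fold change -0.65). Polr3k, the Pol III form, stood at 24.6 and 27.2 CPM before and 21.97 and 23.8 CPM after, and did not pass (log2 fold change -0.18, adjusted p = 0.105).

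All 4 alpha-like subunits fell. Polr1c (ENSMUSG00000067148, chromosome 17, 46243920 to 46248054, minus strand) stood at 58.6 and 66.6 CPM before and at 49.1 and 50.03 CPM after (log2 fold change -0.34, SE 0.06, edgeR adjusted p = 4.42e-07). Its partner Polr1d (ENSMUSG00000029642, chromosome 5, 147077050 to 147111597, plus strand) stood at 106 and 106 CPM before and at 80.3 and 78.4 CPM after (-0.42, SE 0.05, adjusted p = 7.57e-15). Variants in the human forms of these genes are known from Treacher Collins syndrome, a craniofacial disorder of ribosome production. Their Pol II counterparts Polr2c and Polr2j fell by 0.45 and 0.22 on the log2 scale (adjusted p = 3.60e-11 and 0.0443). Polr2c overlaps Dok4 (-0.04) and Polr2j overlaps Lrwd1 (-0.20). Polr2j did not pass with DESeq2 in place of edgeR (adjusted p = 0.0699) or without any one of the libraries (0.0834, 0.134, 0.107 and 0.0895). Nor did it pass with RLE size factors (0.0509) or other scalings (0.188 with upper-quartile factors and 0.1503 with total-count scaling).

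Among the 5 subunits that all enzymes share, Polr2h had the lowest fold change, as it did among all 32. Polr2h (ENSMUSG00000021018, chromosome 16, 20717665 to 20722267, plus strand), which encodes a small core subunit, stood at 41.4 and 40.5 CPM in unirradiated and at 16.4 and 14.5 CPM in irradiated libraries. It fell 2.65-fold (log2 fold change -1.40, SE 0.10, edgeR adjusted p = 4.91e-48), and 1.497% of all genes tested had a lower log2 fold change. Its exons share 82 bases with Clcn2, which did not pass (log2 fold change -0.06, adjusted p = 0.617). The other shared subunits moved less. Polr2e fell by 0.27 and Polr2f by 0.20 on the log2 scale (adjusted p = 1.49e-06 and 0.0122), and Polr2f lost the call without unirradiated replicate 1 (0.0666) or irradiated replicate 1 (0.0685). Other scalings ended the call of Polr2f too (adjusted p = 0.117 with upper-quartile factors and 0.0831 with total-count scaling). Polr2k stood at 15.5 and 17.02 CPM before and at 15.4 and 14.2 CPM after. Its log2 fold change of -0.14 and that of Polr2l, -0.22, did not pass (adjusted p = 0.333 and 0.161). The ratio of Polr2h to Polr2e in counts per kilobase was 0.7796 and 0.742 before and 0.373 and 0.318 after irradiation. This pair was picked after the values had been seen.

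The stalk subunits contact the emerging RNA and initiation factors. Among them, Polr2d and Crcp fell by 0.31 and 0.36 on the log2 scale (edgeR adjusted p = 0.0234 and 5.73e-04). Crcp lost the call without irradiated replicate 1 (adjusted p = 0.0823), and Polr2d without unirradiated replicate 1 (0.175) or irradiated replicate 1 (0.09202). Polr2d also lost it with other scalings (adjusted p = 0.0867 with upper-quartile factors and 0.0703 with total-count scaling). Twistnb, the Pol I stalk gene, had a log2 fold change of -0.13 and Polr2g of Pol II -0.01, and neither passed (adjusted p = 0.238 and 0.917). Polr2m, which encodes a protein bound to a fraction of Pol II, stood at 121 and 119.5 CPM before and at 92.4 and 89.99 CPM after and fell by 0.40 on the log2 scale (SE 0.05, adjusted p = 1.12e-14).

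Within the TFIIF-like pairs the members differed in size of change. In Pol III, Polr3e (ENSMUSG00000030880, chromosome 7, 120917744 to 120947432, plus strand) stood at 31.2 and 32.4 CPM before and at 15.5 and 14.5 CPM after. It fell 2.12-fold (log2 fold change -1.08, SE 0.10, edgeR adjusted p = 2.98e-25). Its partner Polr3d fell by 0.32 on the log2 scale (SE 0.10, adjusted p = 2.84e-03, and 0.0537 without unirradiated replicate 1). The ratio of Polr3e to Polr3d, a pair picked after the values had been seen, was 0.652 and 0.732 before and 0.414 and 0.398 after. In Pol I, Polr1e fell by 0.42 (adjusted p = 9.15e-05). Its partner Cd3eap, which overlaps Ercc1 (-0.47), had -0.21 and did not pass (adjusted p = 0.101).

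Pol III has a subunit with alternative forms, and these moved in opposite directions. Polr3g, known for its high level in embryonic stem cells and many transformed cells, and Polr3gl, the widely expressed form, take the same place in the TFIIE-like trio. Polr3g (ENSMUSG00000035834, chromosome 13, 81673843 to 81711013, minus strand) stood at 24.6 and 24.4 CPM before and at 15.5 and 14.5 CPM after. It fell 1.64-fold (log2 fold change -0.71, SE 0.11, edgeR adjusted p = 3.83e-10). Polr3gl (ENSMUSG00000028104, chromosome 3, 96577872 to 96594181, minus strand) stood at 18.3 and 18.9 CPM before and at 23.6 and 23.2 CPM after. It rose by 25.9% (log2 fold change 0.33, SE 0.11, adjusted p = 3.35e-03). Of the combined level per kilobase, Polr3g made up 35.3% and 34.4% in unirradiated and 20.98% and 20.2% in irradiated libraries. The groups did not overlap, and the shift of -14.3 percentage points was larger than the difference between libraries of either group. The other members of the trio, Polr3f and Polr3c, fell by 0.55 and 0.21 on the log2 scale (adjusted p = 5.69e-13 and 2.74e-03), and Polr3c had adjusted p = 0.158 without irradiated replicate 2 and 0.05705 with upper-quartile factors.

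**Figure D4:**
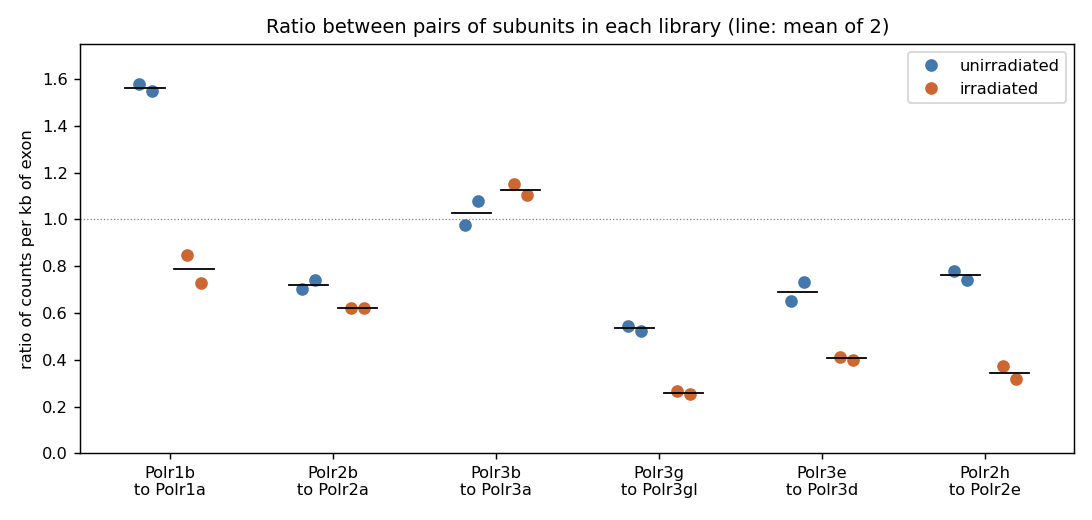
Ratio of counts per kilobase of exon between pairs of subunits (y axis, from 0) in each of the 2 unirradiated and 2 irradiated libraries, with the mean of each group as a line. The groups do not overlap for any of the 6 pairs, and Polr3b to Polr3a is the pair that is higher after irradiation. All pairs but Polr3g to Polr3gl were picked after the values had been seen, so the lack of overlap is no test. Single genes separate the groups for 38.7% (irradiated lower) and 39.7% (irradiated higher) of all genes tested.

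Both rises were small. Of all genes tested, 59.03% had a lower log2 fold change than Polr2a and 69.3% a lower one than Polr3gl. When changes were tested against a minimum of 1.2-fold in either direction, an alternative added after the data had been seen, neither Polr2a nor Polr3gl passed (edgeR adjusted p = 1 and 0.204), and 12 of the 21 decreases did. Those 12 (Polr1b, Polr1d, Polr1e, Znrd1, Polr2c, Polr2h, Polr2i, Polr2m, Polr3a, Polr3e, Polr3f and Polr3g) passed in all 12 alternatives run on single genes. Against that minimum 12 of the 32 subunits passed, and 5978 of the 15298 genes in either direction, which are similar shares. How the 5978 genes divide by direction is not given here.

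Proteins that load or steer the polymerases were read from lists of 80 partner genes, all of which were tested. Across the lists 41 fell and 11 rose, with a median log2 fold change of -0.18 against 0.01 for all genes tested. As shares these are 51.2% and 13.8%, beside 30.3% and 30.4% of all genes tested and 42.3% and 29.3% of genes in the CPM range of the subunits. Of the 7 Pol I factors 5 fell and 2 rose (71.4% and 28.6%, the second near the background). Taf1b and Taf1a, subunits of the promoter selectivity factor, fell by 0.66 and 0.58 on the log2 scale (edgeR adjusted p = 2.32e-12 and 2.01e-05). Rrn3, which makes Pol I competent to start and is named after its values were seen, fell by 0.41 (adjusted p = 1.69e-14). Taf1c and Ttf1, a further selectivity factor subunit and the termination factor, rose by 0.34 and 0.19 (adjusted p = 0.0225 and 0.0259) but did not pass with DESeq2 (0.0781 and 0.0793). Without unirradiated or irradiated replicate 1 Taf1c had 0.294 and 0.327, and without unirradiated or irradiated replicate 2 Ttf1 had 0.336 and 0.204.

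Of 17 Pol III factors 9 fell and 1 rose (52.9% and 5.88%, against 42.3% and 29.3% of genes in the CPM range of the subunits). Gtf3a, which binds the gene of the smallest ribosomal RNA, went from 29.7 and 27.8 to 15.8 and 17.97 CPM (log2 fold change -0.77, edgeR adjusted p = 3.02e-13), and its exons share 1505 bases with Mtif3 (-0.21). Snapc2, of the complex that recognises small nuclear RNA promoters, went from 72.9 and 72.9 to 41.8 and 45.5 CPM (-0.74, adjusted p = 1.42e-30). Maf1, a repressor of Pol III, stood at 58.3 and 57.2 CPM before and 64.2 and 64.3 CPM after (0.15, adjusted p = 0.02202). It did not pass with DESeq2 (0.0628) or without any one of the libraries (0.0675, 0.128, 0.0921 and 0.111). Without the filter on low counts Ttf1 and Maf1 did not pass either (0.0705 and 0.07704).

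Of 18 initiation factors 8 fell and 1 rose. The share that fell, 44.4%, was near the 42.3% of genes in the CPM range of the subunits, and 5.56% rose against 29.3%. Gtf2f2, the small TFIIF subunit, and Gtf2a1 of TFIIA fell by 0.72 and 0.47 on the log2 scale (edgeR adjusted p = 9.00e-12 and 5.65e-07). Gtf2h1, of the helicase complex TFIIH, rose from 51.9 and 52.1 to 75.9 and 76.9 CPM (log2 fold change 0.55, adjusted p = 1.81e-19). Of 22 elongation factors 11 fell and 6 rose (50% and 27.3%, against 42.3% and 29.3%), shares near those of the background. Ell2, of the super elongation complex, rose from 21.7 and 25.9 to 47.4 and 49.6 CPM (1.03, adjusted p = 1.61e-34), and Supt4a, of the pausing factor DSIF, rose by 0.38 on the log2 scale (adjusted p = 3.62e-05). Nelfa, of the pausing complex NELF, and Ssrp1, of the histone chaperone FACT, fell by 0.89 and 0.84 (adjusted p = 1.64e-25 and 3.89e-158). Nelfa shares 60 exon bases with Nsd2, which holds 896% as many counts and fell as well (-0.29).

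Polymerases are put together in the cytoplasm with dedicated helpers, and 6 of 10 assembly factors fell while 1 rose (60% and 10%, against 42.3% and 29.3% of genes in the CPM range of the subunits). Ruvbl2, an ATPase of the R2TP chaperone system, went from 103 and 96.4 to 52.04 and 50.2 CPM (log2 fold change -0.96, edgeR adjusted p = 1.62e-63). Its exons overlap Gys1, which also fell (-0.65). Rpap3, of the same system, went from 43.5 and 43.2 to 28.1 and 26.1 CPM (-0.68, adjusted p = 1.28e-15). Gpn3, a GTPase linked to the nuclear import of Pol II, rose from 22.8 and 21.8 to 32.2 and 30.7 CPM (0.50, adjusted p = 4.75e-07), and its exons overlap Fam216a, which fell (-0.51). Of 6 genes of mitochondrial transcription, Tfb1m and Tfb2m fell by 0.46 and 0.26 on the log2 scale (edgeR adjusted p = 9.07e-03 and 0.0411), and 4 did not pass. The share that fell, 33.3%, was near the 30.3% of all genes tested and below the 42.3% of genes in that CPM range. Tfb1m lost the call without replicate 2 of either group (0.148 unirradiated, 0.0761 irradiated), and Tfb2m without unirradiated replicate 1 (0.367) or irradiated replicate 1 (0.116) or 2 (0.0698). Tfb2m also lost it with DESeq2 (adjusted p = 0.0844) and with other scalings (0.152 with upper-quartile factors and 0.124 with total-count scaling). Tfb1m overlaps Tiam2, which holds 926% as many counts and rose (0.24).

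**Figure D5:**
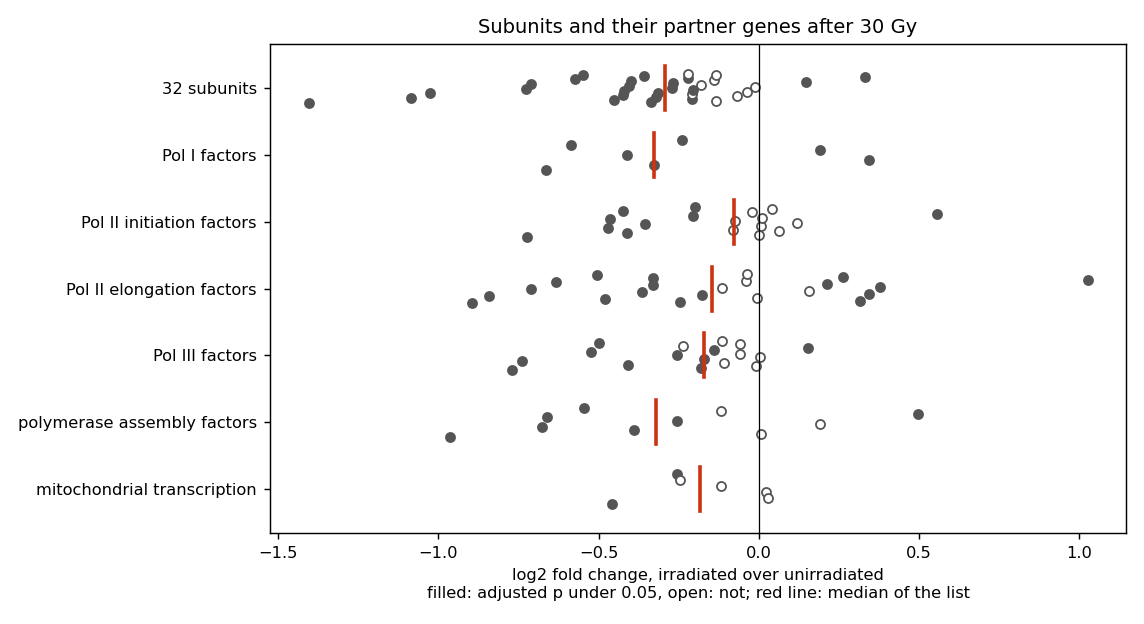
Log2 fold change, irradiated over unirradiated cells (x axis), of the 32 subunits and of each partner list, 1 point per gene, filled where the adjusted p was under 0.05, with the median of the list in red. All medians of the lists shown are below 0, from -0.33 (Pol I factors) to -0.08 (Pol II initiation factors).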

How the data were processed

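Bulk messenger RNA libraries of MC38 cells, 2 unirradiated and 2 irradiated, were analysed, grouped and numbered by title. For unirradiated replicate 2 the title and the description give different numbers, and the title was followed. The values the authors deposited are whole-number read counts for each gene and library, before any normalization. The submitters' processing notes name the mm10 build and, with no version or role, HISAT2, HTSeq, HISAT and DESeq2. The annotation used for counting, its strand setting and its handling of multi-mapping reads were not given in the sources used here.

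Symbols, 1-based coordinates and exons come from GENCODE M21 (GRCm38, the build of mm10), and 189 IDs of the table had no symbol there. The counts were fitted in edgeR 4.0.16 (R 4.3.3) with TMM scaling, filterByExpr on the groups, a robust glmQLFit and 1 term for irradiation, tested by glmQLFTest and adjusted by Benjamini-Hochberg over 15298 genes. The SE was computed from the log2 fold change and the F statistic. Replicate libraries differed by more than sampling noise (mean chi-square per gene 3.38 unirradiated and 4.73 irradiated, over genes with at least 20 counts). The fit was tested on simulated data. Alternatives were DESeq2 1.42.0, RLE and upper-quartile scaling, no filter, a non-robust spread, a replicate block, leaving out each library, leaving out overlapping genes, another gene length and geometric means. Total-count scaling and the minimum fold were added after the data had been seen.

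The members, classes and partner lists were chosen with earlier results of these data known. Values by library are given for the largest and second subunits, Polr3g, Polr3gl and the highest and lowest member of each class. Of each partner list up to 2 genes per direction are named, the most changed of those that passed with a mean of at least 5 CPM. Znrd1, Polr2m, Polr3k and Rrn3 were added after their values had been seen. Promoter sequences come from RefSeq (GRCm38.p6), and protein sequences were not used here. The counts, medians and sums cover all 32 genes, and the values of 1 of them are not reported here.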

Additional observations from a re-analysis of the deposited data

How the results depend on the processing

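Subunits that fell numbered 21 in the reported fit, 20 with RLE size factors, 20 with DESeq2, 17 with upper-quartile factors, 18 with total-count scaling, 21 without the filter and 21 with a non-robust spread. Without the 7 subunits that overlap a well-counted gene, 17 of the fewer subunits that remained fell. Leaving out 1 library, where the lone library of a group is assumed to vary like the other group, gave 17 to 20. The number of subunits that rose was 2 in each of these. Genes called in either direction numbered 9289 in the reported fit, 9292 with RLE size factors, 8740 with DESeq2 and 9248 with upper-quartile factors. They numbered 9208 with total-count scaling, 9216 without the filter and 9301 with a non-robust spread. How they divide by direction in the alternatives is not given here, so the falls of subunits have no background share there. Against a minimum of 1.2-fold 0 of the 32 subunits rose and 12 fell, and 5 of the 80 partner genes rose and 23 fell. In either direction 5978 of the 15298 genes tested were called instead of 9289. Their division by direction is not given here, so these counts by direction have no background share. Deviations from the group means were hardly correlated between libraries with the same replicate number (-0.0106 over all genes tested). With 2 libraries per group this cannot show whether same-numbered libraries shared a culture or batch. With a replicate block 9026 genes were called, 2 subunits rose and 20 fell, and Polr2j lost its call (adjusted p = 0.0524). Upper-quartile factors shifted the median of all genes by 0.0716 and total-count scaling by 0.0588 on the log2 scale. With upper-quartile factors the median log2 fold change was -0.22 for all subunits, -0.31 for those shared by Pol I and III, -0.15 for the common ones, -0.20 for Pol II only and -0.25 for Pol III only. With total-count scaling it was -0.23 for all, -0.16 for the common ones, -0.21 for Pol II only and -0.26 for Pol III only. Leaving out 1 library gave medians of -0.31 to -0.26 for all, -0.28 to -0.23 for the common ones, -0.31 to -0.25 for Pol II only and -0.39 to -0.29 for Pol III only. With upper-quartile factors Polr1a turned to 0.0344, Polr2b to 4.21e-03 and Polr2g to 0.0592, and with total-count scaling Polr1a turned to 0.0216 and Polr2g to 0.0464. Without 1 library Polr2g ranged from -0.08599 to 0.0394. None of them passed in the settings where its sign turned, and the cause was not tested. With the longest transcript as length the summed levels moved by -0.49 (common) and -0.28 (Pol III only). With geometric means levels moved by -0.43 (Pol I only), -0.24 (Pol II only) and -0.35 (Pol III only), and ratios by -0.19 (Pol I to Pol II), -0.12 (Pol III to Pol II) and -0.0731 (Pol I to Pol III). The share of Polr3g moved by -15.1 points with the longest transcript and by -14.7 to -13.8 points without 1 library. The number of libraries and a median SE of 0.0964 limit what small changes can show.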
